A study of Homo sapiens with 2 samples.

Results

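Microexons are the shortest exons of human genes. A read has few bases with which to place one, and the spliceosome has little room to define it. They are best known from neurons, where the splicing factor SRRM4 promotes their inclusion. The splicing factor hnRNP I (PTBP1) can repress many neuronal microexons. A length divisible by 3 lets an exon be included or skipped without shifting the reading frame. Here, the name stands for every exon row of 3 to 30 bp outside the mitochondrial genome in tables of reads per exon from Huh-7, a line of human hepatocellular carcinoma cells. There were 6623 such rows among 239322 (2.77%). Rows of 31 to 60 bp (15840 rows) served for comparison. Length alone chose the rows, and no read count was used.

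The cells, at passage 15-20, received 0.1% DMSO (control) or 0.1 mM BS008, an amiloride derivative, for 24 h, and 1 library was sequenced for each condition. The labels do not say whether the BS008-treated cells also received DMSO. With 1 library for each condition no value below has a replicate, no spread between cultures could be estimated, and each difference is between these libraries. The libraries held 55476654 counts (control) and 53578432 counts (BS008) on exon rows, of which the microexon rows held 77143 (0.139%) and 69181 (0.129%). The rows carry coordinates on hg19 but no gene names, so positions stand in for genes, and the identity of the cells could not be checked against hepatocyte markers.

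The shortest rows were concentrated in a few places. In 3 stretches of the genome at least 50 rows of 3 to 30 bp lay within 1 Mb, and together these held 3803 of the 6623 rows (57.4%). The stretch on the minus strand of chr14, from 106066517 to 107276044, held 3322 of them (50.2%), with a median length of 10 bp and a median gap of 34 bp to the nearest row. The others lay on the plus strand of chr22, from 22429775 to 23246917 (286 rows), and on the minus strand of chr2, from 89157202 to 89587150 (195 rows). As background, the immunoglobulin heavy, lambda and kappa genes lie on chromosomes 14, 22 and 2, but no row was assigned to a gene. In these blocks 51.3% of the rows were under 40 bases from another row or overlapped it, against 7.38% of the 2820 rows outside them. The name microexon therefore fits poorly in the blocks, and those rows are described by length only.

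Almost no reads fell in the blocks. At least 1 count was found on 9 of their 3803 rows in control cells and on 11 in BS008-treated cells, and only 2 rows reached 10 counts. One was a 4-bp row at chr14:106444678-106444681 with 400 counts in control and 516 in BS008, although both neighbouring rows had 0 counts in both libraries. The other was a 5-bp row at chr22:22657569-22657573 with 7 and 24 counts.

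Outside the blocks, reads were found on 1086 of 2820 microexon rows in control cells (38.5%; 95% Wilson confidence interval 36.7 to 40.3%) and on 1110 in BS008-treated cells (39.4%; 37.6 to 41.2%). These intervals overlap, and like all intervals given here they cover the sampling of reads or rows only. The same rows were scored in both libraries, so separate intervals do not measure the difference between them. Rows of 31 to 60 bp outside the blocks were detected more often, at 55.9% and 56.2%. Detection was lowest for rows of 3 to 10 bp, at 26.4% in control and 33.0% in BS008 (106 rows), and highest within the microexons at 16 to 20 bp, at 45.5% and 44.8% (288 rows). It was 38.8% and 42.1% at 21 to 25 bp and 38.7% and 37.9% at 26 to 30 bp (1479 rows). Over all 6623 rows, 930 had reads in both libraries, 165 only in control and 191 only in BS008. Few of those seen in only 1 library had many reads, since 5 and 9 of them reached 10 counts.

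**Figure D1:**
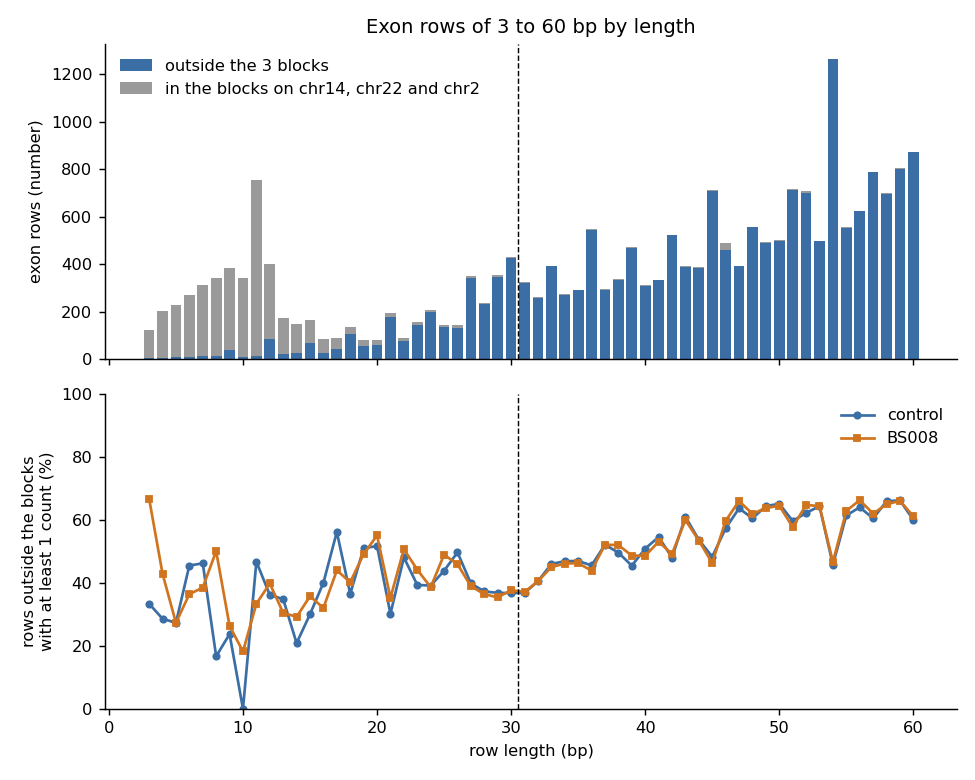
Upper panel: number of exon rows at each length from 3 to 60 bp, split into rows in the 3 blocks (grey) and outside them (blue). Lower panel: percent of rows outside the blocks with at least 1 count in the control (blue circles) and BS008 (orange squares) libraries; the dashed line divides microexon rows from rows of 31 to 60 bp. Most rows under 16 bp lie in the blocks, and both libraries rise together from 38.5% and 39.4% over rows of 3 to 30 bp to 55.9% and 56.2% over the longer rows.

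Lengths divisible by 3 were common among microexon rows outside the blocks. They made up 51.5% of these rows (1452 of 2820), against 31.7% in the blocks, 43.3% of the rows of 31 to 60 bp and 38.1% of all nuclear rows. Such rows were detected at 36.3% against 40.9% for the others in control and at 37.7% against 41.1% in BS008. The 95% Wilson intervals overlap in both libraries. That does not show equal detection, and the difference was not tested.

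To ask how far microexons are used, the count of each row was divided by the mean count of the nearest non-overlapping row on either side, each on the same strand and within 10 kb. Neighbours may belong to another gene. Row and neighbours had to hold at least 20 reads in each library, which left 768 microexon rows, 6 of them in the blocks. Where the neighbours held no reads there is no ratio, so 766 rows have one in both libraries. Their median ratio was 0.252 in control (interquartile range 0.0116 to 0.571) and 0.275 in BS008 (0.0201 to 0.584), while rows of 31 to 60 bp had medians of 0.617 and 0.607. A short row collects fewer reads than a long one at equal inclusion. After division by length, as RPKM, the median ratio was 1.49 for microexons and 1.42 for rows of 31 to 60 bp in control cells. The shortest rows stayed low on this scale, with a median RPKM ratio of 0.215 at 3 to 10 bp. How reads over several exons were counted is not given in the sources used here. A read longer than a microexon also touches the rows beside it, and division by the length of the row does not account for that.

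Microexons with a length divisible by 3 held fewer reads relative to their neighbours than the others. The median count ratio was 0.123 in control and 0.167 in BS008 for the 415 rows divisible by 3, and 0.389 and 0.401 for the 353 others. Of these others, 351 had a ratio in both libraries. By length, the control medians for the 2 kinds were 0.0269 and 0.411 at 16 to 20 bp, 0.0933 and 0.360 at 21 to 25 bp, and 0.364 and 0.491 at 26 to 30 bp. Below 16 bp both were low, with 0.015 and 0.0187 at 11 to 15 bp and 0.00954 and 0.00675 at 3 to 10 bp, where the order turned. At 31 to 60 bp the 2 kinds had similar medians, 0.611 and 0.620. The difference varied with the distance to the neighbours. With a neighbour beyond 1 kb, the control medians were 0.0637 for lengths divisible by 3 (298 rows) and 0.364 for the others (255 rows). The BS008 medians there were 0.0736 and 0.382. With both neighbours within 1 kb the medians were 0.408 (117 rows) and 0.422 (98 rows) in control and 0.384 and 0.473 in BS008. At 16 to 30 bp with such close neighbours the control order turned, with 0.463 (95 rows) and 0.426 (83 rows). The BS008 medians there were 0.467 and 0.473. This split by distance was examined after the data had been seen.

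**Figure D2:**
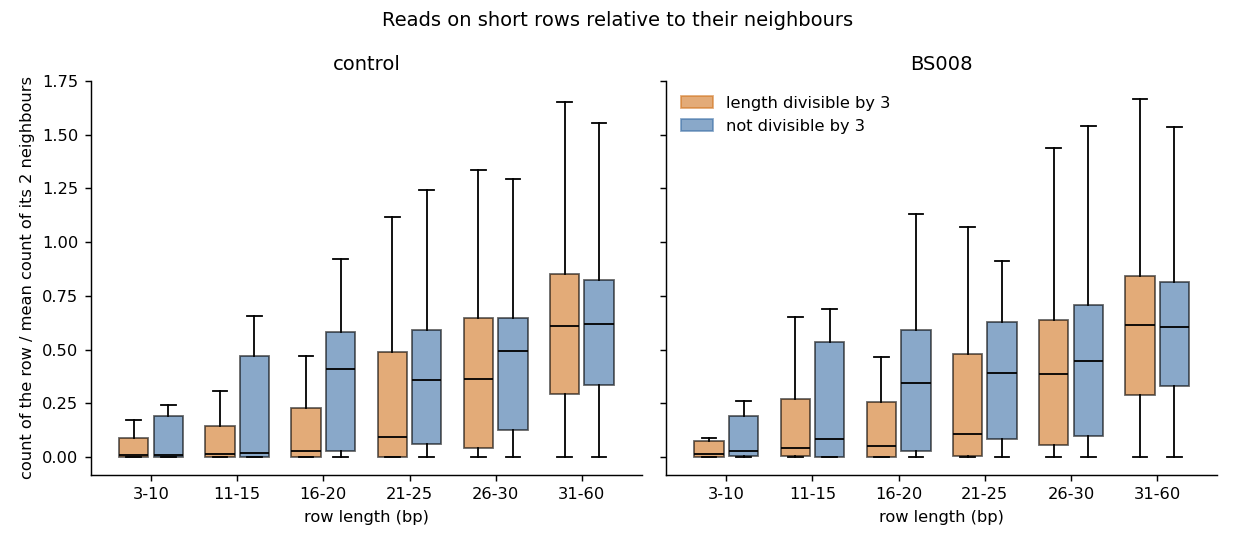
Count of each row divided by the mean count of its 2 neighbours, by row length in bp, for lengths divisible by 3 (orange) and not divisible by 3 (blue), in control (left) and BS008 (right). Boxes span the quartiles with the median as a line, and whiskers reach the furthest row within 1.5 box lengths. In control the medians at 16 to 20 bp are 0.0269 and 0.411, and at 31 to 60 bp they are 0.611 and 0.620.

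Rows with a read in either library were then placed in 3 broad classes of level, under 5%, from 5 to 25%, or at 25% and more of the mean of their neighbours. The class was the same in both libraries for 564 of 672 microexons (83.9%), against 92.1% of rows of 31 to 60 bp and 95.01% of all rows. The classes are wide, and 4 of the 7 rows whose share was called below stayed in 1 class. In control the lowest class held 258 of 766 microexons, the middle 123 and the highest 385, rows without a read included. From the lowest class, which can only be left upwards, 38 microexons moved to the middle and 3 to the highest in BS008-treated cells. From the middle, 24 moved to the lowest. Another 27 moved from the middle to the highest and 16 from the highest to the middle. The direction of such moves is not given for rows of other lengths, so no drift can be read from them. Microexons held fewer reads than other rows, as given below, and the part of depth in these moves was not tested.

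Changes in the amount of RNA on microexons were read from CPM, counts scaled to the library total, as the log2 ratio of BS008 to control with a pseudocount of 0.5, which understates the change of low rows. A minimum of 10 counts in the higher library left 651 rows. In BS008-treated cells 11 of them were higher by 2-fold or more, which is 1.69% against 3.73% of all rows. Another 14 were at least 2-fold lower (2.15% against 3.79%). The median log2 ratio was -0.04 for microexons, -0.09 for rows of 31 to 60 bp and -0.04 for all rows. The comparison with all rows depends on the pseudocount. At 0.1 CPM 66 microexons were higher (10.1% against 8.73% of all rows) and 56 lower (8.60% against 8.52%).

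The microexon that gained most was the 28-bp row at chr20:10625005-10625032, on the minus strand, with 23 counts in control and 310 in BS008 (log2 ratio 2.78). Its neighbours rose from 106 to 998 counts, so that its share of the reads on the 3 rows was 17.8% in control and 23.7% in BS008 (adjusted p = 0.81, Fisher's exact test on reads). Runs of the same 3 row lengths stand at 3 places in the files, so reads may have been divided among copies. Equal lengths alone do not show copies and no sequence was read, so the value is uncertain on this point. The 19-bp row at chr17:41331411-41331429 went from 47 to 175 counts (log2 ratio 1.48), and the 23-bp row that follows it, chr17:41332812-41332834, from 117 to 312. The 27-bp row at chr6:43594659-43594685 rose from 40 to 158 counts (log2 ratio 1.498), and the 18-bp row at chrX:30715849-30715866 from 32 to 123 (log2 ratio 1.38). The neighbours of these 4 rows picked by rank were higher in BS008 as well, and none of the 4 shares passed the test (adjusted p from 0.81 to 1, Fisher's exact test). The fifth was chr1:173835315-173835344, which did change in share and is described below.

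Of the 5 largest decreases, 4 had neighbours that fell alike. The 28-bp row at chr21:47632939-47632966 fell from 381 to 86 counts (log2 ratio -1.81) while its neighbours fell from 821 to 204. Counts dropped from 203 to 47 on the 30-bp row at chr16:8841965-8841994 (log2 ratio -1.59), from 321 to 110 on the 26-bp row at chr13:76414221-76414246 (log2 ratio -1.30) and from 597 to 237 on the 23-bp row at chr2:70516482-70516504 (log2 ratio -1.19). Neighbours fell in all 4, except for a 758-bp row beside the last with 12 and 20 counts, and no share passed the test (adjusted p from 0.81 to 1, Fisher's exact test). The 28-bp row at chr6:33257378-33257405 fell from 84 to 13 counts (log2 ratio -1.44), while the row 141 bp away fell from 509 to 220. Its other neighbour, with 0 and 14 counts, was beyond 10 kb, so its share was not tested. Over all changed rows with both neighbours within 10 kb, the summed neighbours lay on the same side of 0 in log2 ratio for 8 of 9 rows that were higher and 9 of 9 that were lower. As a loose guide, both rows lay on the same side in 83.2% of all pairs of adjacent rows with at least 10 counts. Those pairs set single rows against each other and were not picked for a 2-fold change, so the measures differ. The 19-bp and 23-bp rows on chr17 are neighbours of each other. The neighbours of chr13:76383290-76383319, counted as alike by their sum, went from 6 to 396 and from 387 to 130. The 19-bp row at chr2:87407211-87407229, below the count limit for ranking and named after its values had been seen, had 47 counts in control and 0 in BS008, and the row 959 bp away had 56 and 0.

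**Figure D3:**
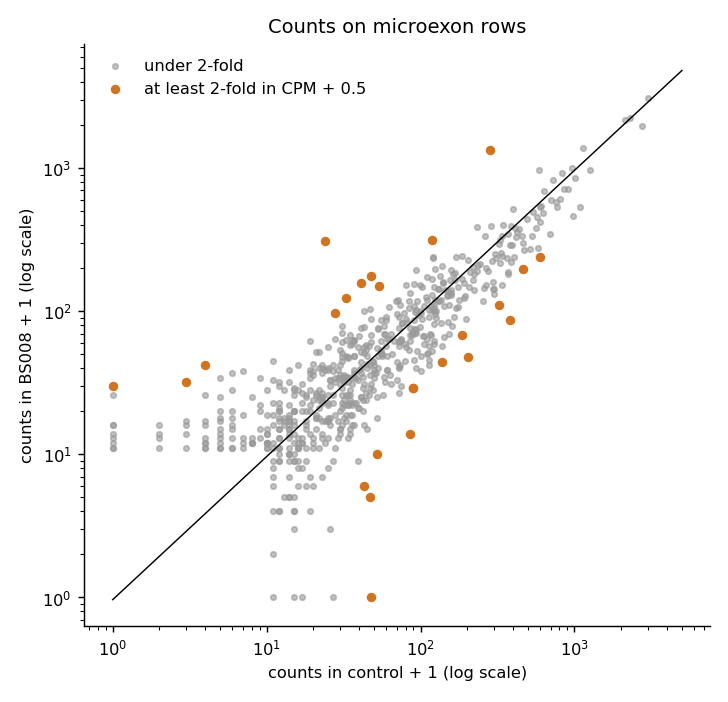
Counts plus 1 of the 651 microexon rows with at least 10 counts in either library, control against BS008, both on log axes. The line marks equal CPM, and the 25 rows in orange differ at least 2-fold in CPM with the pseudocount of 0.5. Most rows lie along the line, and the median log2 ratio is -0.04.

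Of the 5 microexons with the most counts in control, 3 had nearly equal counts in both libraries. The 26-bp row at chr1:24018294-24018319 had 3011 counts in control and 3079 in BS008, the 25-bp row at chr19:1106241-1106265 had 2302 and 2261, and the 25-bp row at chr19:582306-582330 had 2133 and 2160. The 16-bp row at chr9:86585812-86585827 had 1253 and 979 counts, and its share was 23.6% in control and 24.0% in BS008. By contrast, the 26-bp row at chr14:21731470-21731495 went from 2757 to 1978 counts while its neighbours had 477 and 487. Its share was 85.3% in control (95% Wilson confidence interval 84.0 to 86.4%) and 80.2% in BS008 (78.6 to 81.8%), a change below the limit of 10 percentage points (adjusted p = 4.4e-05, Fisher's exact test).

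The shortest microexons with at least 20 counts in both libraries, besides the 4-bp row of the chr14 block, were rows of 5 and 6 bp. The 5-bp row at chr3:53919853-53919857 had 136 and 205 counts, and the next row began after 3 bases. The 6-bp row at chr17:4801282-4801287 had 152 and 69 counts and lay 4 bases and 1 base from its neighbours. Rows this close leave no room for an intron on that side, so the name microexon fits these poorly too.

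Whether a microexon itself was used more or less was read from its share, the percent of the reads on the row and its 2 neighbours that it held. A row was called where Fisher's exact test (two-sided, Benjamini-Hochberg over 99858 rows of any length) gave an adjusted p under 0.05 and the share changed by at least 10 percentage points. The test compares the 2 libraries, not the conditions, and does not allow for reads counted on more than 1 row. Of 768 microexons 6 were called higher in BS008-treated cells (background over all rows 0.918%) and 1 lower (0.728%). Together they were 7 of 768 (0.911%), against 1.65% of all rows and 0.974% of rows of 31 to 60 bp. With neighbours within 1 kb the order of microexons and all rows turned, at 3 of 215 (1.40%) against 1.26%. Leaving out the rows with no read in either library, 7 of 674 microexons (1.04%) were called, and the median absolute change was 1.75 percentage points in microexons and 1.77 in rows of 31 to 60 bp. The values just inside and just outside the limit were 11.1 and 9.96 percentage points. Another 18 microexons changed by at least 10 percentage points without passing the test, with a median of 44.5 reads in control and 58.5 in BS008 on the row and its neighbours.

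**Figure D4:**
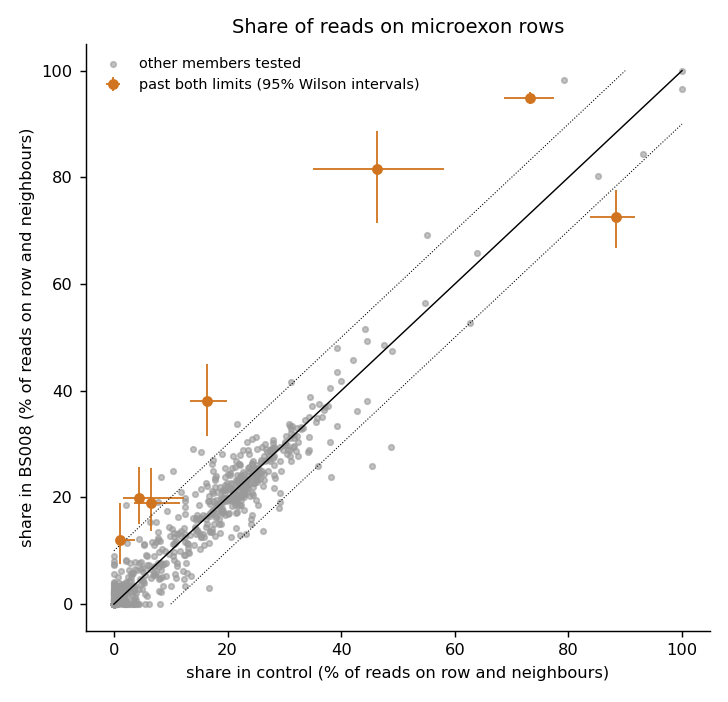
Share of each of the 768 microexons in the reads on the row and its 2 neighbours, control against BS008, in percent. The solid line marks equal shares, the dotted lines a change of 10 percentage points, and the 7 orange points the rows past both limits with 95% Wilson intervals. Of the other rows, 18 lie on or beyond the dotted lines, and over the 674 rows with a read the median absolute change is 1.75 percentage points.

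Among the 7, reads on the microexon itself rose against both neighbours in 4 rows. The 30-bp row at chr1:173835315-173835344, on the minus strand, had 283 counts in control and 1337 in BS008, while its neighbours, both of 61 bp, had 70 and 33 counts in control and 49 and 22 in BS008. Its share was 73.3% in control (95% Wilson confidence interval 68.7 to 77.5%) and 94.96% in BS008 (93.7 to 96.0%; adjusted p = 7.9e-28, Fisher's exact test). This row held far more reads than either neighbour in both libraries, and the neighbours may belong to another gene. Its share therefore cannot tell a change in inclusion from a change in the amount of its RNA. A nearby microexon row of 28 bp on the same strand also rose, from 120 to 238 counts (log2 ratio 0.89). Whether the 2 rows belong to the same transcript was not tested. The 18-bp row at chr12:62959794-62959811 went from 10 to 32 counts between neighbours that changed little, from 66 to 74 and from 76 to 63, so that its share rose from 6.58% (3.61 to 11.7%) to 18.9% (13.7 to 25.5%; adjusted p = 0.034, Fisher's exact test). The 15-bp row at chr1:17961043-17961057 had 2 counts in control and 15 in BS008, whereas its neighbours fell from 82 to 45 and from 108 to 64, and its share rose from 1.04% (0.286 to 3.72%) to 12.1% (7.47 to 19.0%; adjusted p = 0.0012, Fisher's exact test). The 12-bp row at chr11:112024315-112024326 had 3 counts in control and 41 in BS008. Its neighbours also rose, from 48 to 108 and from 16 to 58, and its share went from 4.48% (1.53 to 12.4%) to 19.8% (14.9 to 25.8%; adjusted p = 0.044, Fisher's exact test). This last call was lost when the control library was thinned to the BS008 total.

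In 2 rows the share moved mainly with a neighbour. The 27-bp row at chr16:30251359-30251385 had 84 and 75 counts. Its share rose from 16.4% to 38.1% (adjusted p = 2.9e-07, Fisher's exact test), as the 129-bp row on its 3′ side dropped from 330 to 35 counts and the 158-bp row on its 5′ side had 98 and 87. The 26-bp row at chr2:242263631-242263656 had 221 and 182 counts. Its share fell from 88.4% to 72.5% (adjusted p = 0.00044, Fisher's exact test) while the 836-bp row on its 3′ side rose from 14 to 63. In the seventh, the row and a neighbour moved apart. The 22-bp row at chr11:3829524-3829545 rose from 32 to 62 counts, and its share from 46.4% to 81.6% (adjusted p = 0.00053, Fisher's exact test). Its 5′ neighbour had 0 counts in both libraries and its 3′ neighbour went from 37 to 14, so the share there rests on 1 neighbour. Of the 7 called rows, 5 had a length divisible by 3, as did 54.0% of the 768 microexons tested. Over rows of any length, 34.2% of the 1644 called and 38.01% of the 99858 tested had such a length. These proportions were not compared by a test.

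**Figure D5:**
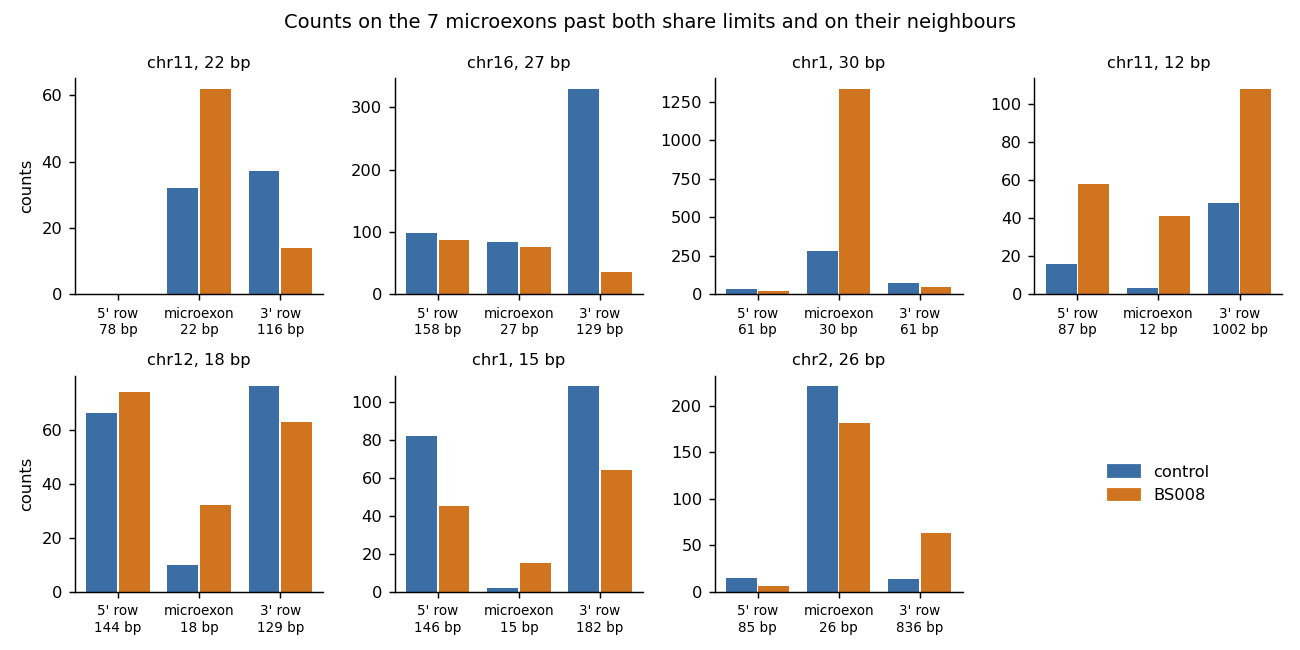
Counts on each of the 7 called microexons and on the neighbouring rows on its 5′ and 3′ sides, in control (blue) and BS008 (orange), with row lengths in bp; each panel has its own axis from 0. The 18-bp row on chr12 rises from 10 to 32 counts between neighbours that change little, whereas the 27-bp row on chr16 has 84 and 75 counts beside a neighbour that falls from 330 to 35.

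When each neighbour had to give the call on its own, 2 microexons passed. These were chr1:17961043-17961057 and the 27-bp row at chr6:86248556-86248582, which was named after its values had been seen. The latter had 18 counts in control and 61 in BS008, its neighbours fell from 422 to 273 and from 371 to 196, and its share went from 2.22% to 11.5% (adjusted p = 4.0e-10, Fisher's exact test), just under the limit of 10 percentage points.

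Without the limit on the size of the change, 29 of 768 microexons had an adjusted p under 0.05. The share was higher in BS008 for 18 (2.34% of the 768, background 2.44%) and lower for 11 (1.43%, background 2.09%). Of these, 13 of 18 and 6 of 11 had a length divisible by 3, against 54.0% of the 768 tested. Over rows of any length with an adjusted p under 0.05, 36.5% of the higher and 34.5% of the lower had such a length. Among all 99858 rows tested it was 38.01%. Whether these proportions differ was not tested. Several of the 29 microexons were rows with little or no use in control cells, named here after their values had been seen. The 15-bp row at chr9:131371930-131371944 had 0 of 1053 reads on the 3 rows in control, which allows a share of up to 0.285% at 3 reads (the 95% Wilson upper limit is 0.363%), and 25 of 744 in BS008 (3.36%; adjusted p = 2.4e-08, Fisher's exact test). The 18-bp row at chr17:40139695-40139712 had 4 and 19 counts, and the 15-bp row at chr2:38523828-38523842 had 24 and 55, while the neighbours of both fell. In the other direction, the 24-bp row at chrX:153585619-153585642 went from 385 to 219 counts and its share from 15.1% to 10.3% (adjusted p = 6.8e-05, Fisher's exact test), and the 26-bp row at chr1:11107260-11107285 went from 25 to 2 counts along with the row 83 bp away, from 57 to 9, while the neighbour on the other side held 4718 and 4051. Of the 29, those with a control share under 5% were 9 higher and 4 lower. Over all rows with such shares and an adjusted p under 0.05 the numbers were 578 and 112. These rows were picked by their control value, and a share this low has little room to fall. The selection itself therefore favours rises, and the counts cannot show an effect of BS008.

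A second measure, added after the data had been seen, set the log2 CPM ratio of a row against that of its neighbours. Among 481 microexons with at least 10 counts, 17 (3.53%) differed at least 2-fold from their neighbours, 10 upwards (background 0.856%) and 7 downwards (0.745%), against 1.6% of all rows and 1.51% of rows of 31 to 60 bp. Microexons held fewer reads, with median counts of 42 and 43 against 100 and 93 over all rows, and the part of depth in this excess was not tested. With a pseudocount of 0.1 CPM there were 33 (6.86% against 3.10% of all rows), and with 1 CPM there were 10 (2.08% against 1.15%). The direction was that of the change in share for 15 of the 17 and the opposite for the other 2. These 2 counted as downwards although their shares rose. They were chr1:156446286-156446306, from 0 to 15 counts, and chr4:83820866-83820890, from 3 to 16. Their neighbours went from 112 to 639 and from 99 to 356. The 7 downwards thus include rows whose share did not fall. Of the 17, 11 had an adjusted p under 0.05 for the share and 5 were among the 7 called rows.

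Some microexons follow each other directly. Outside the blocks there were 225 pairs of consecutive microexon rows, of which 21 had at least 10 counts on both. In 20 of these (95.2%) both rows lay on the same side of 0 in log2 ratio, and over all pairs of adjacent rows with as many counts 83.2% did. The pairs share rows, so they are not independent. A run of 6 rows of 26 to 30 bp on the minus strand of chr16, from 22545822 to 22547216, had log2 ratios from -0.49 to -0.08. The lengths around its second row recur at another place in the files. Whether reads were divided between these places was not tested, so the counts of that row are uncertain. The 21-bp and 27-bp rows at chr6:26466181-26466201 and chr6:26466290-26466316 went from 30 to 78 and from 42 to 99 counts. The exception was on chr10, where the 18-bp row at chr10:79797723-79797740 had 15 and 7 counts and the 22-bp row at chr10:79799962-79799983 had 124 and 196.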

How the data were processed

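RNA of Huh-7 cells was extracted with Trizol, and libraries were made with an Illumina mRNA-seq kit once per condition. Raw read counts per exon row were deposited by the authors, together with RPKM values, which divide the counts by row length and library total. The RPKM values were recomputed from the deposited counts to within 4.7e-06. The build, hg19, comes from the submitters' processing notes, and the aligner, the counting tool and the annotation are not given in the sources used here. The annotation at hand was on another build and came without a genome, so no gene was assigned, no sequence was read, and the planned lists of splicing regulators, microexon genes and cell markers and the planned splice site and motif counts were not used.

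The members and lists were chosen with earlier results of these data known. The definition of the blocks, the limit of 40 bases, the ratio against the neighbours and the split at 1 kb were chosen after the data had been seen. The rows named are the 6 largest rises and falls in share past both limits, the 5 largest and smallest log2 ratios among rows reaching 50 counts in either library, the 5 with the most counts in control and the 3 shortest with at least 20 counts in both libraries. Others are named as chosen after their values were seen.

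Rows with a count above 0 were called detected. Depth was 55476654 and 53578432 counts, and 3 counts, the smallest amount taken as shown, were 5.41e-06% and 5.6e-06% of the libraries. The code was tested on simulated data. The tools were scipy 1.17.1, numpy 2.4.6 and pandas 2.3.3 in Python 3.11.15, matplotlib 3.10.9 for plots and, for TMM factors, edgeR 4.0.16 in R 4.3.3. Alternatives were other pseudocounts, count and read minimums, limits, normalizations, neighbours and row sets, and a thinned control library.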

Additional observations from a re-analysis of the deposited data

Results flagged for a closer look

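A microexon outside the share comparison was higher in BS008-treated cells. The 30-bp row on the plus strand at chr15:84871748-84871777 had 53 counts in control and 150 in BS008, a log2 CPM ratio of 1.18. Its nearest rows on the strand lay 163156 and 34892 bases away, so it has no share value. It was one of 170 microexons with at least 10 counts that the share comparison did not cover, of which 147 had no neighbour within 10 kb on at least 1 side and 23 had too few reads.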

How the results depend on the processing

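Of 78 summary values recomputed under an alternative, 44 stayed near the reported value and 34 moved. Among 162 values of single named rows none turned direction, 10 fell below a limit and 1 moved: the log2 ratio of chr20:10625005-10625032 was 3.52 with a pseudocount of 0.1. Most alternatives for the share altered only the limits or the rows kept. The share change of a named row then stayed the same, so its direction could not turn. Over all 6623 rows, blocks included, detection in control and BS008 was 16.5% and 16.9% with a count above 0. On the same rows it was 10.9% and 11.3% with at least 5 counts and 8.71% and 9.10% with at least 10 counts. The 38.5% and 39.4% given above are for rows outside the blocks. With a pseudocount of 0.1, 66 and 56 rows were at least 2-fold higher and lower in CPM. Both shares passed those of all rows there. With a pseudocount of 1 they numbered 6 and 5 (0.922% and 0.768%, against 2.30% of all rows in each direction). At 1.5-fold they were 57 and 66 (8.76% and 10.1% against 11.5% and 13.9%). Leaving mitochondrial rows out of the total, 17 were at least 2-fold higher (2.61% against 4.26% of all rows). The median log2 ratio at 50 counts or more was -0.11. The number 2-fold off their neighbours was 33 with a pseudocount of 0.1, 10 with 1 and 7 of 248 at 50 counts or more, where it was 2.82% against 1.40% of all rows.

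Share calls numbered 3 of 215 with neighbours within 1 kb (1.40% against 1.26% of all rows, the reverse of the reported order), 12 of 1045 within 100 kb (1.15% against 2.38%), 18 of 768 at 5 percentage points (2.34% against 2.99%), 3 of 768 at 20 (0.391% against 0.535%) and 2 of 573 with each neighbour on its own (0.349% against 0.408%). The median count ratio in control and BS008 was 0.418 and 0.416 within 1 kb and 0.166 and 0.166 within 100 kb. With neighbours of at least 61 bp it was 0.182 and 0.200. For lengths divisible by 3 it was 0.408 and 0.384 within 1 kb and, in BS008, 0.0993 with neighbours of at least 61 bp. For other lengths it was 0.473 in BS008 within 1 kb, and 0.25 and 0.257 within 100 kb. The cause of these changes was not tested. No paired analysis was possible because each condition has 1 library, and for the same reason no replicate could be left out. With few reads, a change of 10 percentage points was not detectable on every row.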
